A study of Canis lupus familiaris with 24 samples.

Results

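TACR1, GNB3 and INPP5A were followed in lymph node cells of 4 dogs with B-cell lymphoma, each sampled in a drug-sensitive and in a drug-resistant phase. They are 3 of the 27720 genes or unnamed transcripts measured, and were chosen by the direction of their change in log2 signal between the phases, which was the same in all 4 dogs. The differences between phases that chose them are given as a description, without a test. Each gene had 2 probes on the array, and all 6 probes passed the filter on dim probes.

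TACR1 is the neurokinin receptor at which substance P acts, a cell-surface receptor that signals mainly through the G protein Gq. Active Gq switches on phospholipase C, which splits a membrane lipid into diacylglycerol and inositol trisphosphate, and the inositol trisphosphate releases calcium from stores inside the cell. G proteins are built from an alpha, a beta and a gamma subunit. GNB3 is a beta subunit that is abundant in cone photoreceptors, and INPP5A is a phosphatase that inactivates inositol trisphosphate.

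Dog 1 was a male Shih Tzu aged 10 years, dog 2 a male Doberman aged 9 years, dog 3 a castrated male French Bulldog aged 3 years and dog 4 a spayed female French Bulldog aged 5 years. Cells were taken from peripheral lymph nodes by fine-needle aspiration, so tumour cells came together with other cells of the node. Each dog and phase, 8 groups in all, had 3 one-colour arrays, and nothing states whether these came from separate aspirates, so p-values over arrays measure the spread between arrays, which may be technical. The drugs are not given in the sources used here.

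Across the 24 arrays, 71% to 80.9% of the spots lay well above background, and the 75th percentile of the signal lay between 676.4 and 1118. The number of arrays limits the precision. Of the transcripts measured, 718 (2.59%) carried a gene symbol. The arrays came from 7 slides, and the resistant arrays of dog 4 had a slide and a scan day of their own, so that in dog 4 phase and slide cannot be told apart. Of the 11 B-cell markers listed, 2 were measured (MS4A1 and CD40), and both lay well above background in every group. Levels are log2 of the processed signal relative to the 75th percentile of the array, and the levels of different probes are not compared with each other.

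TACR1 lay lower in the resistant phase of every dog. On its brighter probe the differences were 3.29-fold, 2.95-fold, 2.19-fold and 1.46-fold in dogs 1 to 4. In dog 1 the level was -1.30, -1.36 and -1.45 on the sensitive arrays and -3.25, -3.01 and -3.01 on the resistant arrays. In dog 2 it was -1.55, -1.53 and -1.57 and then -3.00, -3.18 and -3.15. In both dogs every resistant array lay far below every sensitive array. Dog 3 gave -2.02, -2.00 and -2.03 in the sensitive phase and -3.57, -2.85 and -3.02 in the resistant phase, in which the first array lay below the other two. Dog 4 gave -2.70, -2.55 and -2.77 and then -3.39, -3.28 and -2.99, the smallest gap between phases of the 4 dogs. The change was -1.72, -1.56, -1.13 and -0.55 in dogs 1 to 4, each with a standard error (SE) of 0.14 from the fit over all arrays, and the mean over dogs was -1.24 ± 0.26 (SE, n = 4).

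The arrays of the phases did not overlap in 4 of 4 dogs. The same was true of 2.91% of all genes in the downward direction, and in single dogs of 62.2%, 68.7%, 55.3% and 56.4% of all genes in either direction. Since the choice of the gene used this contrast, nothing is read from these shares. In bulk RNA, fewer cells of a type and less RNA per cell cannot be told apart.

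The dimmer TACR1 probe gave changes of -1.82, -1.75 and -1.48 in dogs 1, 2 and 3, each with an SE of 0.07, but -0.06 in dog 4. There the sensitive arrays read -4.14, -4.11 and -4.20 and the resistant arrays -4.42, -4.02 and -4.20. These overlap, so the lower level of dog 4 rests on the brighter probe. Over the 8 dog-and-phase means the probes correlated with r = 0.97, where the means share dogs and arrays.

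The level of TACR1 differed among dogs before resistance and hardly after it. In the sensitive phase the brighter probe stood highest in dog 1, then dog 2, dog 3 and dog 4, with no overlap between neighbours in that order, and the means spanned 1.30 (2.47-fold). In the resistant phase the 4 means lay between -3.22 and -3.09, a span of 0.13 (1.09-fold), and neighbours in the order overlapped. The processed signal there averaged 75.3 to 110 units, while the dimmest probe well above background read 7.11 to 12.4 units on the different arrays. The level thus lay above that limit, which is set over all probes and not for this one. On the dimmer probe the resistant means and the sensitive mean of dog 4 lay together, between -4.42 and -4.15. Whether the probes have a floor of their own near these levels was not tested.

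Over all genes, the median span among dogs was 0.88 in the sensitive and 0.91 in the resistant phase, and 0.552% of genes had a smaller span than TACR1 in the resistant phase. In limma's F-test among dogs, the brighter probe gave an adjusted p = 2.54e-07 in the sensitive phase, where 85% of all genes passed. In the resistant phase, where 83.2% passed, limma gave it an adjusted p = 0.792. The dimmer probe spanned 1.67 and 0.20, with adjusted p = 1.86e-13 and 0.0412. This split by phase was made after the levels had been seen, and whether the spans of the phases differ was not itself tested. The resistant span of the brighter probe was 0.06 to 0.35 over the other scalings, filters, probe choices and left-out replicates, against 1.00 to 1.67 in the sensitive phase. It was widest with median scaling (0.35) and quantile normalisation (0.34).

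**Figure D1:**
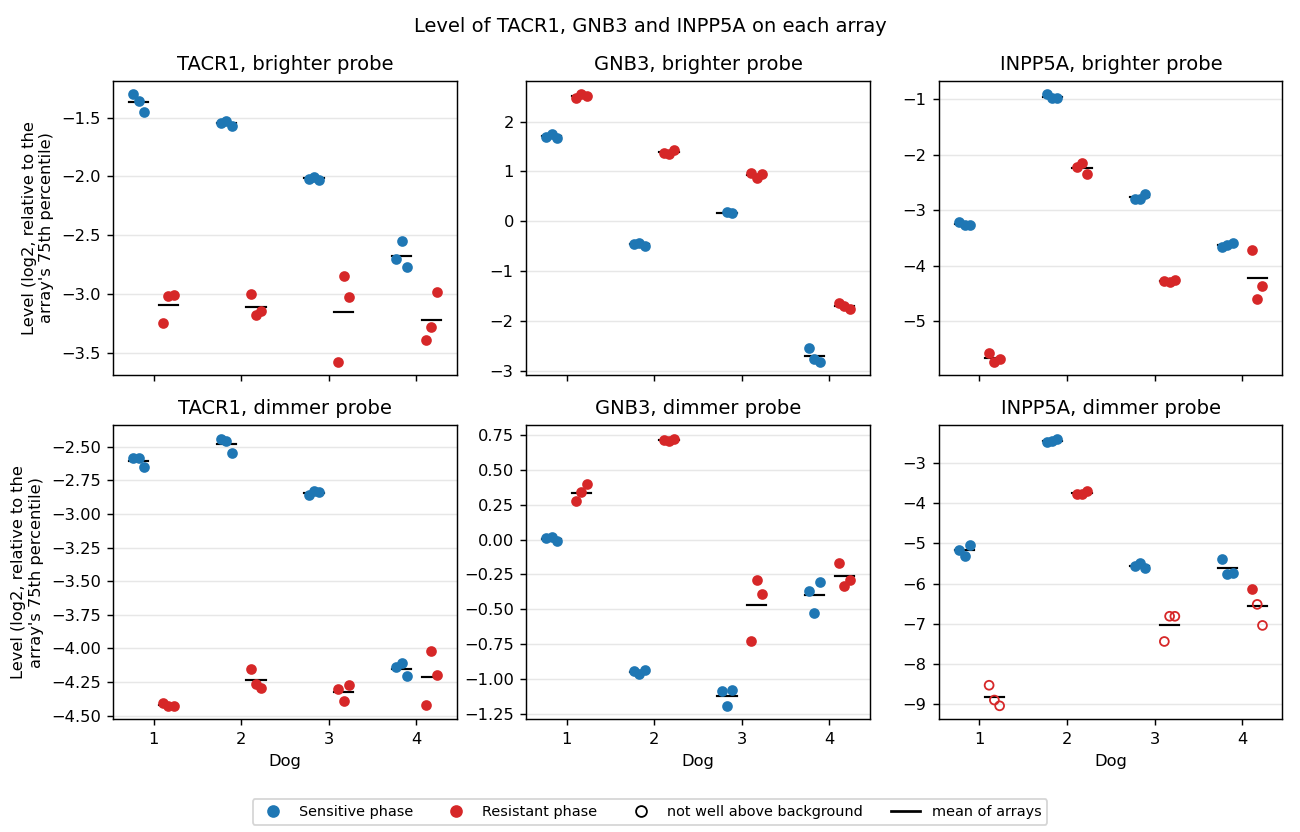
Level of each probe of TACR1, GNB3 and INPP5A on each array (log2 relative to the 75th percentile of the array) by dog, with sensitive arrays in blue, resistant arrays in red, open circles for spots not well above background and a black line at the mean. TACR1 steps down from dog 1 to dog 4 in the sensitive phase and lies between -3.22 and -3.09 in the resistant means of its brighter probe, GNB3 lies higher in the resistant phase, and INPP5A stands highest in dog 2.

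GNB3 lay higher in the resistant phase of every dog. On its brighter probe the differences were 1.74-fold, 3.62-fold, 1.69-fold and 2.00-fold in dogs 1 to 4. In dog 1 the level was 1.70, 1.75 and 1.68 on the sensitive and 2.47, 2.55 and 2.51 on the resistant arrays. Dog 2 gave -0.45, -0.44 and -0.50 and then 1.38, 1.35 and 1.44. The gap in dog 2 was the widest, and its arrays agreed closely within each phase. In dog 3 the sensitive level was 0.19 and 0.16 on arrays 2 and 3, with the spot of array 1 left out as an outlier spot, and the resistant level was 0.97, 0.88 and 0.94. Dog 4 gave -2.54, -2.76 and -2.82 and then -1.65, -1.71 and -1.76. The arrays of the phases did not overlap in 4 of 4 dogs, as for 2.17% of all genes in the upward direction. Nothing is read from this share either, since the choice of GNB3 used this contrast.

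The change of GNB3 was 0.80, 1.86, 0.76 and 1.00 in dogs 1 to 4, with SEs of 0.05 to 0.06, and the mean over dogs was 1.10 ± 0.26 (SE, n = 4). The dimmer probe gave smaller changes of 0.33, 1.66, 0.65 and 0.14, each with an SE of 0.08, and a mean of 0.70 ± 0.34 (SE, n = 4). In dog 4 that probe read -0.37, -0.52 and -0.31 and then -0.17, -0.33 and -0.29, which overlap. Dog 2 had the largest change on both probes, and the higher level of dog 4 rests on the brighter probe. Among the genes with a symbol that moved upward in every dog, GNB3 had the largest mean change on its brighter probe (1.10), just above 2-fold. The next of them to lie well above background on all arrays was CD1C, a lipid antigen-presenting molecule, with 0.63. On its dimmer probe GNB3, with 0.70, would lie below TFAP2B (0.79) and OCLN (0.78), each with at least 1 group not well above background. Of all transcripts, 0.083% were higher in every dog with a 2-fold or larger mean. Nothing is read from this rank or share, since the choice of the gene used this contrast.

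INPP5A lay lower in the resistant phase of every dog. On its brighter probe the differences were 5.31-fold, 2.44-fold, 2.83-fold and 1.51-fold in dogs 1 to 4. In dog 1 the level was -3.22, -3.26 and -3.26 on the sensitive and -5.56, -5.72 and -5.68 on the resistant arrays. Dog 2 gave -0.91, -0.98 and -0.97 and then -2.22, -2.15 and -2.35. Dog 2 was the highest in both phases, and its resistant arrays lay above the sensitive arrays of the other dogs. Dog 3 gave -2.79, -2.80 and -2.71 and then -4.27, -4.28 and -4.25. Dog 4 gave -3.67, -3.63 and -3.60 and then -3.72, -4.60 and -4.36. In dog 4 the first resistant array came close to the sensitive arrays without overlapping them.

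The change of INPP5A was -2.41, -1.28, -1.50 and -0.59 in dogs 1 to 4, each with an SE of 0.14, and the mean over dogs was -1.45 ± 0.37 (SE, n = 4). Leaving out 1 array at a time moved the value of dog 4 between -0.85 and -0.40. With normexp background correction and quantile normalisation, the mean over dogs was -0.79. In dogs 1 and 3 no resistant array showed the dimmer probe well above background, so that dog 1 had at least 2.86-fold lower and dog 3 at least 1.85-fold lower levels of it. These bounds set the sensitive mean against the dimmest signal well above background on each resistant array, or the probe's own where higher. In dog 2 the dimmer probe differed by -1.30 and in dog 4, with 1 of 3 resistant arrays well above background, by -0.94, each with an SE of 0.19. The phases did not overlap in any dog on either probe, as for 2.91% of all genes in the downward direction on their brightest probes. Nothing is read from this share, since the choice of the gene used this contrast. On the dimmer probe the gap in dogs 1 and 3 is partly between signal and background. The probes correlated with r = 0.981 over the 8 means, 2 of which were below background on the dimmer probe.

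Among genes with a symbol that moved downward in all dogs, INPP5A (-1.45) and TACR1 (-1.24) were among those past a mean of 2-fold. Other such genes moved further, among them CXCL12 (-2.03) and COL1A2 (-1.66). With normexp INPP5A and TACR1 fell short of 2-fold. At that edge MT2A, a metallothionein, had -1.01 and ABCC5, a transporter, -0.99. Of all transcripts, 2.99% were lower in every dog with a 2-fold or larger mean. Nothing is read from this share, since the choice of the genes used this contrast.

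**Figure D2:**
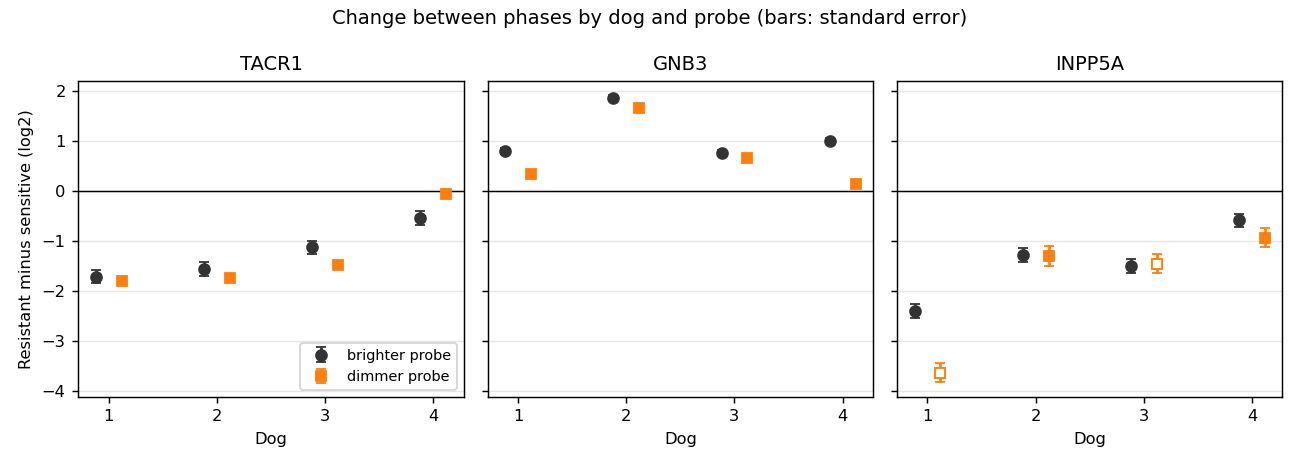
Resistant minus sensitive change (log2) of the brighter probe (black circles) and the dimmer probe (orange squares) of each gene by dog, with bars for the standard error and open squares where no resistant array was well above background. Both probes of a gene lie on the same side of 0 in each dog, and in dog 4 the dimmer probes of TACR1 (-0.06) and GNB3 (0.14) lie close to it.

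Some slides held both phases of a dog. Since the arrays of the phases did not overlap on the brighter probes, the direction within a slide was fixed in advance. Only the sizes are therefore given. TACR1 differed by -1.88 on slide 1 (dog 1), -1.54 on slide 3 (dog 2) and -1.56 on slide 4 (dog 3) on its brighter probe. GNB3 differed by 0.75, 1.89 and 0.80 and INPP5A by -2.32, -1.27 and -1.50 on the same slides. Each slide held 3 arrays of 1 phase and 1 of the other, except that 2 sensitive arrays carried GNB3 in dog 3. The value of TACR1 in dog 3 was -1.13 over all its arrays, and -0.92 without its first resistant array, which is the one on slide 4.

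The standing levels of INPP5A and, on its brighter probe alone, of GNB3 differed widely among dogs, a comparison that the choice of genes did not use. Averaged over both phases, GNB3 on its brighter probe stood at 2.11, 0.46, 0.55 and -2.21 in dogs 1 to 4, a 19.9-fold range that exceeded the range of 98.5% of genes. INPP5A stood at -4.45, -1.60, -3.52 and -3.93, a 7.23-fold range that exceeded that of 94.7% of genes. TACR1 stood at -2.23, -2.33, -2.58 and -2.95, a 1.64-fold range. On the log2 scale that range was 0.72, beside a median of 0.78 over all genes. In limma's F-test over the 24 arrays the adjusted p was 5.42e-22 for GNB3, 1.14e-14 for INPP5A and 6.54e-06 for TACR1, and 86.7% of all genes passed it.

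With the 8 dog-and-phase means as the samples and phase as a covariate, the adjusted p of limma's F-test was 0.0185 for GNB3, 0.0608 for INPP5A and 0.399 for TACR1, and 6.05% of genes passed. The residual of that fit is the spread of the changes among dogs. The choice of the genes used those changes, so these p-values are not independent of it. All 8 groups of GNB3 stood apart on the brighter probe, in the order dog 1 resistant, dog 1 sensitive, dog 2 resistant, dog 3 resistant, dog 3 sensitive, dog 2 sensitive, dog 4 resistant and dog 4 sensitive. For INPP5A the order began with dog 2 sensitive and dog 2 resistant and ended with dog 1 resistant, and dog 4 resistant and dog 3 resistant overlapped.

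The GNB3 probes did not give the same picture of the dogs. On the dimmer probe the levels were 0.17, -0.11, -0.79 and -0.33 in dogs 1 to 4, a 1.95-fold range, with adjusted p = 1.09e-10 over arrays and 0.367 over the 8 means (limma's F-test). Dog 4 was the lowest by far on the brighter probe and lay above dog 3 on the dimmer. The probes correlated with r = 0.482 over the 8 means. For INPP5A both probes put dog 2 highest. The order of the other dogs on its dimmer probe is not given, since dogs 1 and 3 were below background there in the resistant phase.

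**Figure D3:**
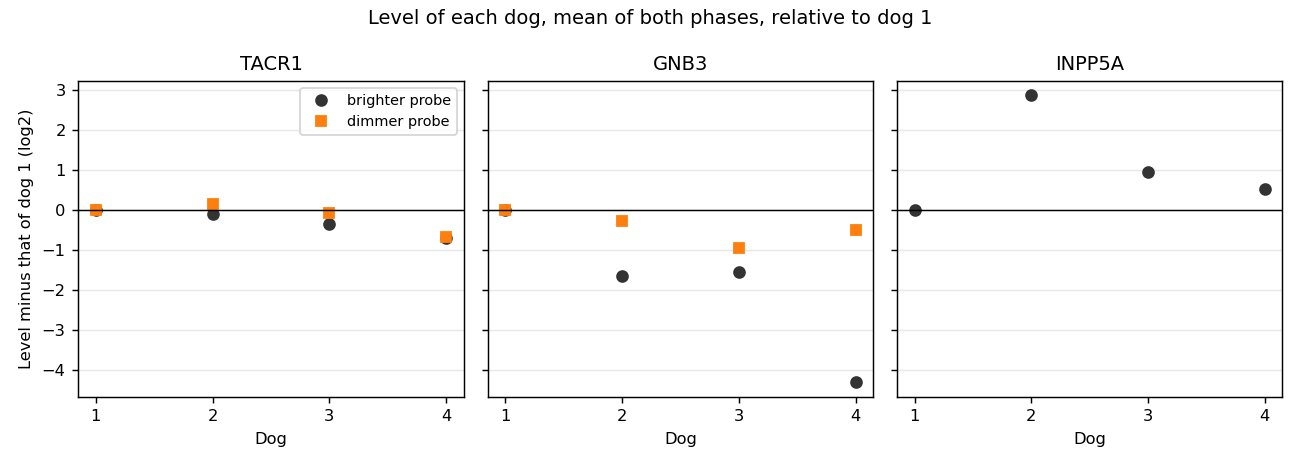
Level of each dog (mean of both phases, log2) relative to dog 1 for the brighter probe (black circles) and the dimmer probe (orange squares) of each gene, without the dimmer probe of INPP5A, which lay below background in 2 groups. The probes of TACR1 keep close to each other, while for GNB3 dog 4 lies far below dog 1 on the brighter probe alone.

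TACR1 and INPP5A correlated with r = 0.604 over the 8 means of their brighter probes, GNB3 and TACR1 with r = 0.04 and GNB3 and INPP5A with r = -0.204. The means include the change between phases that chose the genes, so nothing is read from these values. Among 717 other genes with a symbol, those most like TACR1 over the 8 means were the cytokine gene IL1A (r = 0.944), the protease inhibitor gene TIMP2 (0.898), the purine receptor gene P2RY12 (0.878), ZFPM2 (0.863) and the chemokine gene CCL8 (0.837). TIMP2 differed between phases by -1.11, -2.29, -1.02 and -0.18 in dogs 1 to 4, and CCL8 by -2.06, -3.00, -0.21 and -0.85. IL1A, P2RY12 and ZFPM2 each had at least 1 group with no array well above background, so that their likeness rests in part on signals below background. For IL1A these were both phases of dog 4 and the resistant phase of dogs 1 and 3, where its level was at least 5.51-fold and at least 1.57-fold lower. Those most like INPP5A were the transcriptional repressor gene GFI1 (0.953), the steroid enzyme gene HSD11B1 (0.946), the calcium-binding protein gene S100A4 (0.942), the monoamine oxidase gene MAOA (0.936) and TIMP1 (0.933). GFI1 stood at 1.42 and 0.11 in the phases of dog 2 and between -3.74 and -1.33 in the groups of the other dogs, so that it too was highest in dog 2.

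Those most like GNB3 were SRP72, part of the signal recognition particle (0.946), ARHGEF2 (0.932), TFAP2B (0.915), the copper chaperone gene COX17 (0.901) and SLC35A3 (0.872). TFAP2B, a transcription factor, stood between -1.28 and -0.06 in dogs 1 to 3, and in dog 4 was well above background on 0 of 3 sensitive and 1 of 3 resistant arrays. SRP72 kept between 4.10 and 4.66 in all groups, so that its likeness lies in the order of the groups and not in the size of their differences. These correlations rest on 8 means that share 4 dogs, and are a description. The change between phases by which TACR1, GNB3 and INPP5A were chosen is part of those means, so the lists of like genes depend on that choice.

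Among the cell types listed, only the stroma markers had a sum that, like TACR1 and INPP5A, fell in the resistant phase of every dog. Of 13 fibroblast and stroma markers, 6 were measured, and their summed level, in percent of the 75th percentile of the array, was lower in the resistant phase of each dog. Dog 1 had 222 to 224 in the sensitive and 48.1 to 49.7 in the resistant phase, dog 2 had 699 to 738 and 248 to 276, dog 3 had 1051 to 1107 and 399 to 420, and dog 4 had 407 to 467 and 294 to 307. The collagen gene COL1A2 made up 78.1% to 91.4% of the sum in all groups but the resistant phase of dog 1 (39.8% to 42.5%). Without COL1A2 the other 5 markers summed to 45.9 to 48.6 and then 27.7 to 29.7 in dog 1, 63.2 to 69.1 and 33.6 to 46.3 in dog 2, 163 to 168 and 52.1 to 63.5 in dog 3, and 73.7 to 88.1 and 53.5 to 64.1 in dog 4. CXCL12, a stromal chemokine gene, was called in each dog, with changes of -2.77, -1.77, -1.88 and -1.69. No resistant array of dog 2 showed the proteoglycan gene DCN well above background, and DCN had 0.12 in dog 4 without a call. PDGFRB, a receptor of stromal cells, and the proteoglycan gene BGN were called in none of the dogs. Dog 4 had the smallest difference between phases in TACR1, in INPP5A and in the sum of all 6 markers. The part of these cells in the result was not tested.

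T-cell markers (5 of 12 measured) summed to 39.4 to 45.9 and then 24.8 to 27.5 in dog 1, 441 to 465 and then 27.3 to 28.4 in dog 2, 48.2 to 52.7 and then 31.5 to 42.9 in dog 3, and 35.0 to 41.5 and then 50.2 to 53.7 in dog 4. They were thus lower in the resistant phase in dogs 1 to 3 and higher in dog 4, where TACR1 and INPP5A were also lower. NK and cytotoxic markers (2 of 12) summed to 3605 to 3696 in the sensitive phase of dog 2, the dog with the highest INPP5A, and to 140 or less in the other groups. In the resistant phase of dog 2 they summed to 45.7 to 51.0, while INPP5A there still lay above the other dogs.

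Neutrophil markers (5 of 10) summed to 227 to 246 and then 25.7 to 35.9 in dog 1, 14.6 to 20.3 and then 122 to 126 in dog 2, 411 to 420 and then 13.3 to 22.5 in dog 3, and 59.7 to 68.8 and then 55.1 to 57.8 in dog 4. They were higher in the resistant phase of dog 2, where TACR1 and INPP5A were lower. Macrophage (3 of 12), endothelial (3 of 11), platelet (3 of 10), erythroid (3 of 10) and nerve and glia markers (3 of 15) did not keep 1 direction over the 4 dogs. Of the endothelial markers, KDR, a growth factor receptor, fell in dog 2 by 2.08 and in dog 3 by 2.91. In dog 1 KDR was at least 2.54-fold lower, and in dog 4 it had 0.33 without a call. VWF had -0.21, 0.15, -0.40 and 0.17 and SELE -0.80, -0.02, -0.002 and 0.65 in dogs 1 to 4, without a call. The B-cell sum lay between 5467 and 8271 in all groups, and neither of its genes was called in any dog. Among these lists, the part of the T cells, NK cells and neutrophils in the levels of the 3 genes was not tested either.

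**Figure D4:**
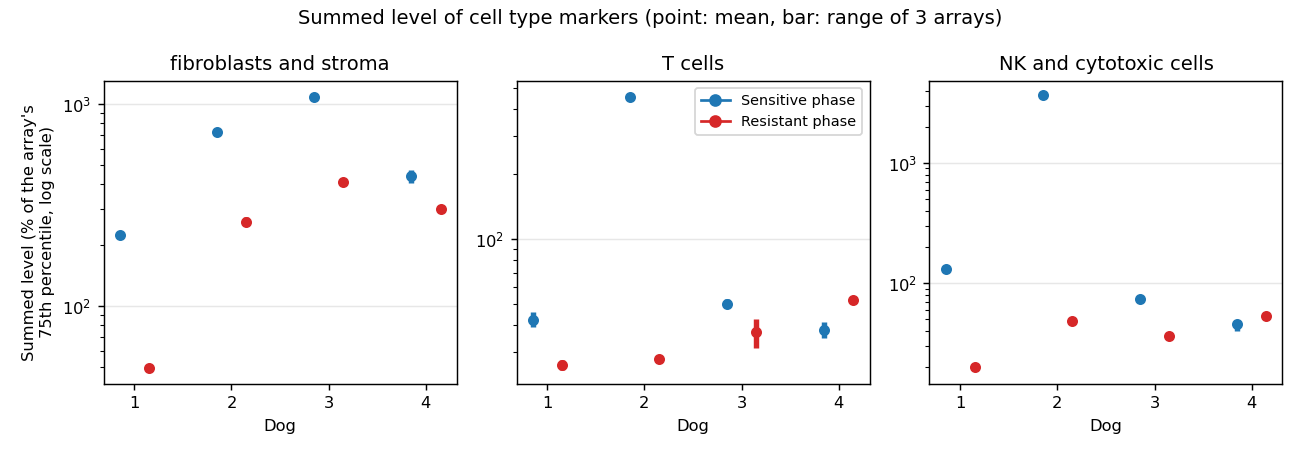
Summed level of the measured fibroblast and stroma (6), T-cell (5) and NK and cytotoxic (2) markers in percent of the 75th percentile of the array (log scale) by dog, with the sensitive phase in blue and the resistant phase in red, points for the mean and bars for the range of 3 arrays. The stroma sum is lower in the resistant phase of all 4 dogs, and the T-cell sum is lower in dogs 1 to 3 and higher in dog 4.

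Of the other genes listed for the signalling route and measured, a share near that of all genes moved in 1 direction in all 4 dogs. Nothing about the route is read from that. Of 259 genes listed by function, from tachykinin ligands to calcium channels and the light response of the eye, 40 had a named probe and 26 were measured. Of the 26, 12 were phototransduction genes and 7 were other receptors that signal through Gq. No Gq alpha subunit, phospholipase C or inositol trisphosphate receptor was among them, so the steps between TACR1 and INPP5A were hardly covered. A gene was called within a dog at an adjusted p under 0.05 in limma and at least 2-fold. By this rule 3 of 26 genes passed in dog 1 (1 up, 2 down), 5 in dog 2 (2 up, 3 down), 3 in dog 3 (all down) and 3 in dog 4 (1 up, 2 down). These are 11.5%, 19.2%, 11.5% and 11.5% of the 26, beside 11.9%, 13.8%, 6.75% and 5.56% of all genes. Of all genes, 3.83%, 3.98%, 1.36% and 4.06% were called up and 8.1%, 9.84%, 5.39% and 1.5% down in dogs 1 to 4. The median change of the 26 genes was -0.06, 0.03, 0.09 and 0.08 in dogs 1 to 4, and that of all genes -0.06, 0.11, 0.03 and 0.07. No gene of the 26 was called in all 4 dogs, as 0.299% of all genes were. At least 1 dog had a call for 10 of the 26, beside 25.6% of all genes, and 4 of the 26 moved in 1 direction in all 4 dogs, beside 15.3% of all genes. Of the 17 that are named, 14 had changes that differed among dogs (limma's F-test on the dog-by-phase interaction), beside 78.8% of all genes. Across dogs, with the 8 means and the dog as a block, limma called 0 of 26 genes (lowest adjusted p = 0.607; 1 gene, SAG, at an unadjusted p under 0.05), and 0 of all genes (0%, lowest adjusted p = 0.364), of which 5.78% had an unadjusted p under 0.05.

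Of the tachykinin ligands and receptors (2 of 9 measured), TACR2, the receptor preferred by neurokinin A, fell in dog 3 by 1.38 (SE 0.26, adjusted p = 0.000269 in limma). Its arrays there read -5.32, -5.07 and -5.08 and then -6.36, -6.78 and -6.45, of which 1 of the 3 resistant arrays was well above background. The call was lost with normexp (-0.27) and with the authors' value table (-0.54). In the other dogs TACR2 lay near background, with changes of -0.14, 0.14 and 0.36 that were not called. TACR3, the receptor preferred by neurokinin B, was called in no dog. Its changes were -0.35, 0.16, 0.20 and 0.75, and the last passed the adjusted p alone (0.00141 in limma) but not the 2-fold minimum. In dog 4 TACR3 read -3.84, -3.67 and -4.17 and then -3.12, -3.23 and -3.08, while TACR1 lay lower there. The difference between these receptors was not tested. No tachykinin ligand was measured.

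Among the G protein alpha subunits (2 of 16 measured), GNAS, the subunit that stimulates adenylyl cyclase, fell in dog 2. Its level there was 3.89, 3.90 and 4.03 on the sensitive and 2.26, 2.40 and 2.24 on the resistant arrays, a change of -1.64 (SE 0.08, adjusted p = 1.91e-12 in limma). The 4 other GNAS probes gave -2.22 to -2.51 in dog 2. In the other dogs GNAS stood at 5.66 to 6.22 on all arrays, with changes of -0.26, 0.03 and 0.06 that were not called, so dog 2 had the lowest GNAS in both phases. GNAI2, an inhibitory alpha subunit, had changes of 0.33, 0.02, 0.15 and 0.39 and was not called. Alpha subunits of the Gq class were not among the genes measured.

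The beta and gamma subunits (2 of 16 measured) are the partners and relatives of GNB3. GNB1, the widely expressed beta subunit, had changes of 0.34, 0.22, 0.35 and -0.09, all under 2-fold, and its 3 other probes gave 0.12 to 0.44 in dogs 1 to 3 and -0.09 to -0.04 in dog 4. GNGT2, a gamma subunit of cones, had changes of 0.42, 0.34, 0.07 and -0.05. Neither reached 2-fold in any dog. The changes of GNB1 passed the adjusted p alone in all 4 dogs (1.53e-07, 2.86e-05, 1.51e-07 and 0.0444 in limma), upward in dogs 1 to 3 as for GNB3 and downward in dog 4.

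Downstream of Gq, 1 of 31 genes of phospholipase C, protein kinase C and diacylglycerol turnover was measured. PRKCD, a protein kinase C that diacylglycerol activates, had changes of 0.32, 0.55, 0.50 and -0.04 and was not called. Of the inositol trisphosphate receptors and calcium release genes (2 of 40), the calcium pump gene ATP2A2 had changes between -0.14 and 0.05 on its brightest probe. Its 4 other probes disagreed, with 0.18 to 0.64 in dog 1, -0.02 to 0.14 in dog 2, -0.42 to 0.07 in dog 3 and -0.52 to 0.29 in dog 4. PLN, whose protein restrains that pump, was called in dog 2, with -3.93, -4.00 and -4.01 and then -5.14, -4.98 and -5.02 (change -1.07, SE 0.28, adjusted p = 0.00328 in limma), and was not well above background in the other dogs on either of its probes. The dimmer PLN probe gave -0.89 in dog 2. The PLN call, just past 2-fold, was lost under 8 of 12 alternatives, among them without replicate 1 or replicate 2. Of the receptor kinases, arrestins and G protein regulators listed, 0 of 34 were measured. Apart from INPP5A, 0 of 34 inositol phosphate phosphatases and kinases were measured.

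Among other receptors that signal through Gq (7 of 48 measured), EDNRB, an endothelin receptor, was lower in 2 dogs. In dog 3 it read -3.06, -2.89 and -2.87 and then -3.89, -6.07 and -6.19, a change of -2.45 (SE 0.41, adjusted p = 7.68e-05 in limma), and the first resistant array stood well above the others. With slide as a block this change was -0.95 and was not called. In dog 2 EDNRB was at least 1.63-fold lower (adjusted p = 0.00876 in limma), with no resistant array well above background, a call lost without replicate 2 or replicate 3, with normexp (-0.22) and with the authors' value table (-0.28). BDKRB2, a bradykinin receptor, rose in dog 2 by 1.39 on the log2 scale (SE 0.56, adjusted p = 0.0409 in limma), a call lost under 4 of 13 alternatives, among them without replicate 1 (1.26) and without replicate 2 (1.30). In dog 1 BDKRB2 had -1.26 (adjusted p = 0.067 in limma, arrays not overlapping) and in dog 3 1.14 (adjusted p = 0.111), without a call. BDKRB1 had changes of 0.34, 0.12, 0.26 and 0.11 and was not called. PTGFR, a prostaglandin receptor, was well above background on all arrays of a group only in the sensitive phase of dog 2, and was not called. EDNRA, the other endothelin receptor, was outside the naming rule and is named because it was called, with -1.31 in dog 1 (adjusted p = 0.0177 in limma) and 1.16 in dog 4 (adjusted p = 0.0384 in limma), though its arrays overlapped in dog 1.

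The phototransduction genes (12 of 40 measured, among them GNB1 and GNGT2) are those that work beside GNB3 in photoreceptors. PDE6B, a subunit of the phosphodiesterase of rods, rose in dogs 1 and 2. In dog 1 it read -2.74, -2.66 and -2.65 and then -0.98, -1.08 and -1.03, and in dog 2 -5.07, -5.36 and -5.15 and then -2.62, -2.57 and -2.51. The changes were 1.65 and 2.63 (SE 0.08, adjusted p = 5.22e-12 and 3.35e-15 in limma), and the other probe kept gave 1.48 and 2.21. In dogs 3 and 4 PDE6B had 0.49 and -0.06 on the first and -0.23 and 0.37 on the other probe, without a call, so that it followed GNB3 in dogs 1 and 2 alone. Whether PDE6B and GNB3 differ in this was not tested.

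SAG, the arrestin of rods, fell in dogs 1 and 4 (adjusted p = 0.00111 and 0.000143 in limma), in dog 4 by 1.36. In dog 2 it had -0.72 without a call, and in dog 3 it was not well above background in either phase. In dog 1 only 1 sensitive array and no resistant array of SAG lay well above background, and the level was at least 1.37-fold lower, a call lost under 7 of 12 alternatives, among them without replicate 3. GUCY2D, a guanylate cyclase of photoreceptors, was well above background in the sensitive phase of dog 4 alone (-4.83, -4.97 and -4.86) and its resistant level there was at least 2.77-fold lower (adjusted p = 1.88e-11 in limma). RCVRN, the calcium sensor recoverin, was well above background on all 3 arrays of a group only in the sensitive phase of dog 3, and the resistant level there was at least 1.73-fold lower (adjusted p = 0.00945 in limma). Of the resistant arrays of dog 4, 1 also showed RCVRN above background. The RCVRN call was lost without replicate 2 or replicate 3, and the calls of SAG in dog 4 and of GUCY2D and RCVRN with normexp and with the authors' value table.

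**Figure D5:**
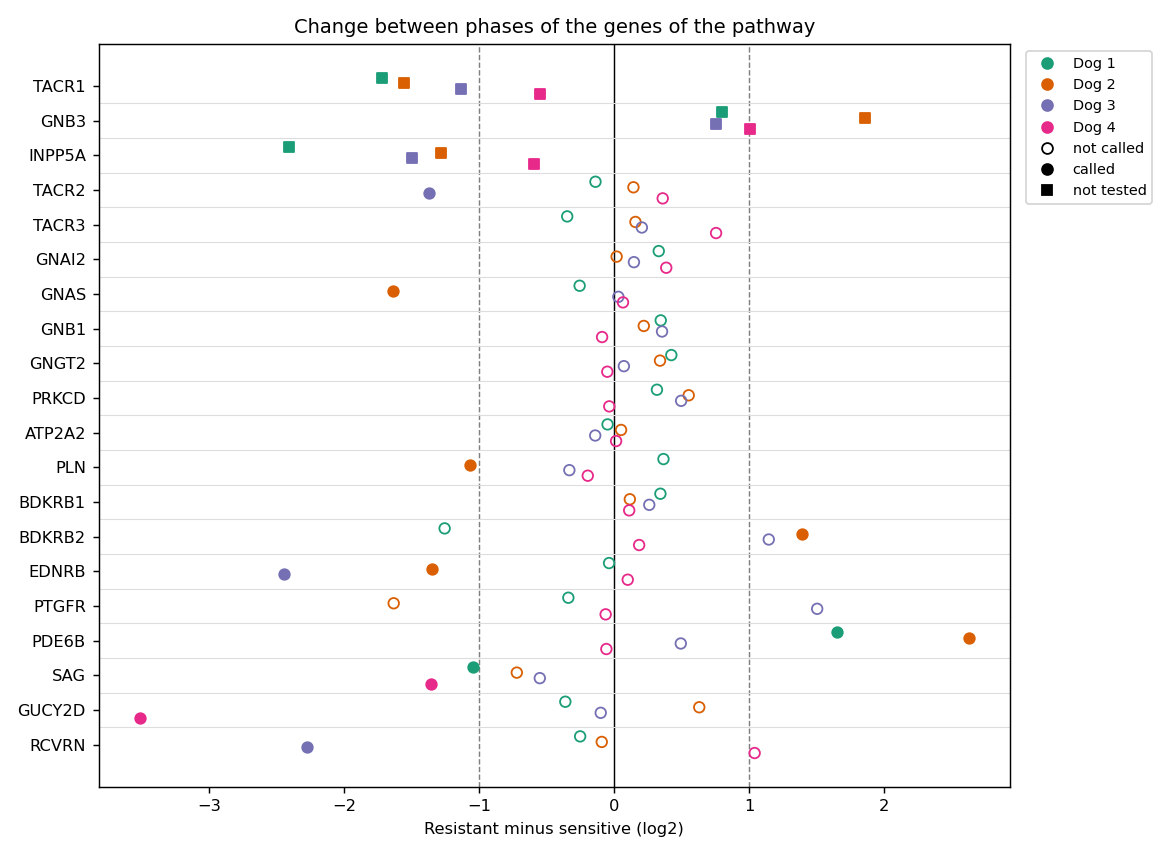
Resistant minus sensitive change (log2) in dogs 1 to 4 of TACR1, GNB3 and INPP5A (squares, not tested) and of 17 other genes of the signalling route (circles, filled where called in limma at an adjusted p under 0.05 and at least 2-fold, with dashed lines at 2-fold). The 3 genes, chosen for this, keep 1 direction, as do GNAI2, BDKRB1 and SAG among the others. GNAS, PDE6B and EDNRB are among the others that differ by more than 2-fold in 1 or 2 dogs. Values of probes below background in 1 phase are shown as measured.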

How the data were processed

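Total RNA of lymph node aspirates of 4 dogs in 2 phases was labelled with Cy3 and hybridised to 24 one-colour Agilent arrays, per the labels' protocols. The authors deposited the scanner's intensity per spot. Per the submitters' processing notes it was extracted with Agilent Feature Extraction 10.7.3.1, and per the file headers the processed signal is background-subtracted within the array. No genome build is named in the sources used here. The separate value table of the authors held the unprocessed median intensity (largest difference 0), so it is linear, uncentred and unscaled between arrays, with column medians of 97 to 141.

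Here, processed signals were put on a log2 scale and each array was set relative to its 75th percentile. Control spots (1417 of 45220) and outlier spots were left out and repeated spots averaged. A probe was kept where some group had all 3 of its arrays well above background (34547 of 43603), and the brightest probe stood for a gene. Of 35908 identifiers, 832 matched a RefSeq gene table (assembly UU_Cfam_GSD_1.0), used for names alone.

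limma (3.58.1, R 4.3.3) was fitted to all 24 arrays in 8 groups within dogs and, across dogs, to 8 means with the dog as a block, with Benjamini-Hochberg adjustment over 27720 genes, two-sided. The fits were tested on simulated data. The 3 genes, the gene lists and the tests were chosen with earlier results of these data known. From the lists, 1 gene is not reported here. Named are both probes of the 3 genes, the 5 genes most like each, and of each list all measured members up to 4, otherwise the 4 of largest mean change. Alternatives were other background, scaling, filter and probe choices, slide and replicate blocks, no fold minimum, and each replicate or dog left out. Leaving out single arrays, and the level and range among dogs within each phase, were added after seeing the data. Normexp, planned on the mean signal, was run on the median signal with an offset of 50.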

Additional observations from a re-analysis of the deposited data

Results flagged for a closer look

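Of the 17 other genes of the signalling route that the text names, 14 had changes between phases that differed among the 4 dogs, by limma's F-test on the dog-by-phase interaction over 24 arrays, adjusted over all genes. Of all genes, 78.8% passed the same test, and the spread in it is that between arrays. Adjusted p was 1.32e-12 for PDE6B, 1.54e-10 for GUCY2D, 2.32e-10 for GNAS, 3.26e-08 for PRKCD, 5.9e-07 for GNB1 and 4.58e-06 for GNGT2. PRKCD had 0.32 to 0.55 in dogs 1 to 3 and -0.04 in dog 4, and GNB1 had 0.22 to 0.35 in dogs 1 to 3 and -0.09 in dog 4.

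Adjusted p was 0.00165 for TACR2, 0.00189 for EDNRB, 0.00274 for ATP2A2, 0.0033 for GNAI2 and 0.00427 for TACR3 in the same limma test. It was 0.0216 for BDKRB2, 0.0258 for PLN and 0.0272 for RCVRN.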

How the results depend on the processing

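The mean changes of TACR1, GNB3 and INPP5A kept their direction under all 16 alternatives run for each gene. These left out a dog or a replicate or changed the background, scaling, filter, probe or slide term. Leaving out a dog or a replicate could not have reversed them. The genes were chosen for 1 direction in every dog, and the arrays of the phases did not overlap on the brighter probes. TACR1 ranged from -1.66 (slide as a fixed block, dogs 1 to 3) to -0.89 (normexp), GNB3 from 0.70 (dimmer probe) to 1.22 and INPP5A, without settings that use its dimmer probe, from -1.73 (without dog 4) to -0.79 (normexp). With slide as a fixed block no value could be fitted for dog 4. Under median scaling the median of all changes was 0.12 in dog 1 (otherwise -0.06) and 0.26 in dog 2 (otherwise 0.11), and the 3 genes kept their direction relative to it.

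The counts of genes of the signalling route called in dogs 1 to 4 (3, 5, 3 and 3) depended on the settings. With normexp and quantile normalisation they were 1, 3, 1 and 0, and with probes well above background on all arrays (16 genes) 1, 3, 0 and 0. With the authors' value table they were 3, 1 and 0 in dogs 2 to 4. Quantile normalisation and the slide as a random block each gave 1 in dog 1, and the slide as a fixed block 1 in dog 1 and 3 in dog 2. Without the fold minimum they were 12, 12, 9 and 8. Leaving out a replicate gave 1 (without replicate 3) to 4 in dog 1, 3 (without replicate 1 or 2) to 5 in dog 2, 2 to 4 in dog 3 and 2 to 3 in dog 4. The cause was not tested. Of the calls of single named genes, those of GNAS and PDE6B held under all alternatives, and none reversed.

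The difference among dogs lost its call with 8 means for TACR1 (adjusted p = 0.399) and INPP5A (0.0608), which have fewer samples, and in the resistant phase alone for TACR1 (0.792, limma). Replicate numbers did not pair the arrays: over 12 pairs the correlation of deviations was -0.132 to 0.0891. With the replicate block the counts were 3, 5, 3 and 3, and adjusted p for the level among dogs 1.14e-05, 1.65e-19 and 1.81e-13 for TACR1, GNB3 and INPP5A. Dim probes near background limit INPP5A in dogs 1 and 3.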
